A study of Mus musculus with 2 samples.

Results

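Naphthalene harms the airway only after a cytochrome P450 enzyme has oxidised it, and 8 genes listed for that step were followed across the cells of the mouse lung. Whether the product of each acts on naphthalene was not tested. They are the P450 genes Cyp2f2, Cyp4b1, Cyp2b10, Cyp2a5, Cyp2s1, Cyp2e1 and Cyp1b1, and Por, the gene of the reductase that hands electrons to microsomal P450 enzymes. The genes were taken by symbol, and each of the 8 was found once among 28692 gene rows. No measured value entered the rule that chose them.

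P450 enzymes of the endoplasmic reticulum insert an oxygen atom into lipophilic molecules, using electrons that arrive through POR or cytochrome b5. With naphthalene the product is a reactive epoxide, which epoxide hydrolase can open to a diol and glutathione transferases can couple to glutathione. In the mouse lung the club cell, the secretory cell of the bronchiole, is known for its high content of CYP2F2 and is the cell that naphthalene injures.

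The study profiled single lung cells of adult C57BL/6 mice, sorted by flow cytometry for the epithelial adhesion protein Epcam and captured in droplets with a kit that reads the 3' ends of transcripts. The NAPH group was taken after an injury that the labels give only by that abbreviation, and the Control group carries no injury in its label. The sources used here give neither the dose, nor the time after injury, nor the number of animals. Each group is 1 library, so no difference between the groups has a replicate check and no test was made. The NAPH library held 3685 cell barcodes and 38497783 unique molecular identifiers (UMIs, each standing for a captured transcript), and the Control library 3298 barcodes and 41699755 UMIs. After filters and removal of likely doublets 3572 NAPH and 3211 Control cells remained, and 14 barcode sequences occurred in both libraries.

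Cells were assigned by the level of a few genes per 10000 UMIs of the cell. Secretory cells had Scgb1a1, the main club cell secretoglobin, at 1000 or more. Alveolar type 2 (AT2) cells, which make surfactant, had Sftpc at 500 or more, and ciliated cells had Foxj1, Ccdc153 and Tmem212 at 10 or more together. Myeloid cells passed none of these gates and held at least 2 UMIs of the leukocyte genes Ptprc, Coro1a and Cd52. The secretory gate held 186 NAPH and 749 Control cells, the AT2 gate 2501 NAPH and 1793 Control cells, the ciliated gate 198 NAPH and 187 Control cells, and the myeloid gate 505 NAPH and 447 Control cells. Another 167 NAPH and 25 Control cells passed no gate. Levels are given in CPM, the UMI count of a gene scaled to a fixed total per group of cells. Markers that the gates do not use had their highest sums in the gate of their name. All 9 listed for a gate were detected in it. Detection does not set the gates apart, since all 9 secretory markers were also detected in myeloid cells of both libraries. The secretory markers summed to 82734 CPM in NAPH and 35964 CPM in Control in secretory cells, and to 1163 CPM in NAPH and 630.4 CPM in Control in myeloid cells. The AT2 markers summed to 67555 CPM in NAPH and 62234 CPM in Control in AT2 cells, the ciliated markers to 11354 CPM in NAPH and 16099 CPM in Control in ciliated cells, and the myeloid markers to 33362 CPM in NAPH and 30465 CPM in Control in myeloid cells.

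On chromosome 7, Cyp2s1, Cyp2b10, Cyp2a5 and Cyp2f2 lie within 1331 kb, at chr7:25802475-27133660 of GRCm38, a stretch that holds 12 protein-coding Cyp2 genes in GENCODE. Cyp2e1 is far away on the same chromosome, at chr7:140763739-140774987. Cyp4b1 lies at chr4:115624725-115647723, Cyp1b1 at chr17:79701537-79715061 and Por at chr5:135670033-135735326, and all 8 genes are protein-coding. The last 500 bases of Cyp2a5 share 12.4% of their 50-base words with Cyp2a4, those of Cyp2b10 share 7.54% with Cyp2b13 and those of Cyp4b1 share 2.22% with a pseudogene, Cyp4b1-ps2. Of the Cyp2e1 words, 18.8% recur in many other genes. The sources used here do not say how the authors' counting treated such reads, or reads of genes that overlap Cyp2f2, Cyp2s1 and Por, so levels of these genes carry that uncertainty.

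The promoters of Cyp2f2, Cyp4b1, Cyp2b10 and Cyp2a5 are shown because these genes were the ones at least 2 times lower in NAPH secretory cells. Each sequence is the 250 bases before the RefSeq start in GRCm38.p6, read 5' to 3' along the gene's strand, and all 8 genes were found in that RefSeq table. The windows are chr7:27119705-27119954 (+ strand), chr4:115647722-115647971 (- strand), chr7:25897408-25897657 (+ strand) and chr7:26835089-26835338 (+ strand). Capitals mark matches on either strand to a TATA box (TATAAA), a C/EBP core (TTGCNNAA), an AHR core (GCGTG) or an NKX2-1 core (CAAGTG), and no match overlapped another.
Cyp2f2: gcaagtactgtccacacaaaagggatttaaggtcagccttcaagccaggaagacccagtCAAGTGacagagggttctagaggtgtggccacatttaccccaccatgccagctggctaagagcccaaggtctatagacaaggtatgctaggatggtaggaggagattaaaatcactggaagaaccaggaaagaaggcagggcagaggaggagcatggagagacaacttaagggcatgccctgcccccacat
Cyp4b1: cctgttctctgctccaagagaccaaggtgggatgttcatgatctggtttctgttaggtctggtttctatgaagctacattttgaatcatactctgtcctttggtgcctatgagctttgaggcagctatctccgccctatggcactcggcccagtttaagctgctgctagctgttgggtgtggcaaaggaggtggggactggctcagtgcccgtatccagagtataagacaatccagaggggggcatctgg
Cyp2b10: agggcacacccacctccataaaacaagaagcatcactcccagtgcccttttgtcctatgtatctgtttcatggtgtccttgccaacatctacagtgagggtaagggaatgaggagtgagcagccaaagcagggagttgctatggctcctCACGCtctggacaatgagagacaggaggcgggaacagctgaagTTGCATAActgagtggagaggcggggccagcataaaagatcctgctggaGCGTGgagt
Cyp2a5: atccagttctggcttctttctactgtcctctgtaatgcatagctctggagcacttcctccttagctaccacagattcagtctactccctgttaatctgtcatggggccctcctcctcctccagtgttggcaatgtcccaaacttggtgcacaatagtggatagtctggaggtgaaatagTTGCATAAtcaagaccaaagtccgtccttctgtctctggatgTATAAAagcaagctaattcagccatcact

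The Cyp2f2 window held 1 NKX2-1 core, whose first base lies at -191 from the start. The Cyp2b10 window held a C/EBP core at -58 and AHR cores at -101 and -9. In the Cyp2a5 window there were a TATA box at -29 and a C/EBP core at -71. None of these letters was in the Cyp4b1 window. Among 32851 listed promoters of that length 12.4% held the TATA box, 9.56% the C/EBP core, 28.2% the AHR core and 11.6% the NKX2-1 core, and a match describes letters only.

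Cyp2f2, which encodes the main naphthalene epoxidase of the mouse airway, was highest in secretory cells and next in ciliated cells of both libraries. In secretory cells it stood at 3279 CPM (3225 to 3334) in NAPH and 5812 CPM (5779 to 5845) in Control. Ranges given with values are exact 95% intervals, Poisson for levels and ratios and binomial for shares, and they cover counting error only. In ciliated cells its level was 1606 CPM (1549 to 1664) in NAPH and 1439.9 CPM (1369.8 to 1513) in Control. AT2 cells held 37.5 CPM (35.1 to 40.0) in NAPH and 117 CPM (112 to 123) in Control, and myeloid cells 79.4 CPM (71.1 to 88.3) in NAPH and 97.7 CPM (87.9 to 108) in Control. Below the ciliated cells came myeloid and then AT2 cells in NAPH, and AT2 and then myeloid cells in Control, with no neighbouring intervals overlapping. As plain CPM the secretory level was 87.4 (81.8 to 93.5) times the AT2 level in the NAPH library and 49.6 (47.3 to 52.1) times in the Control library. Relative to the median ratio of all genes it was 129 (120.5 to 138) times in NAPH and 103 (97.7 to 108) times in Control.

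Every secretory cell held Cyp2f2, 186 of 186 cells in NAPH and 749 of 749 cells in Control. Per 10000 UMIs of a secretory cell its lowest, median and highest values were 3.81, 29.2 and 122 in NAPH, against 0.838, 55.4 and 124 in Control. The full ranges overlapped, but the upper quartile of NAPH cells, 42.5, lay below the lower quartile of Control cells, 45.2.

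**Figure D1:**
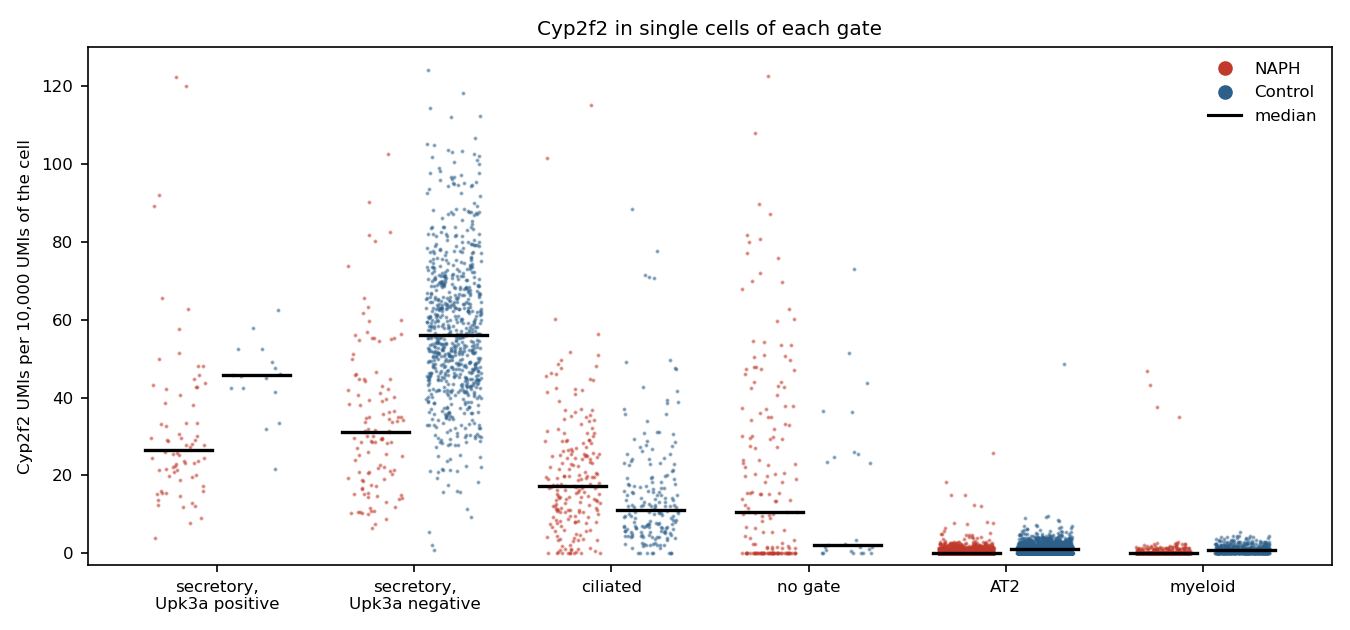
Cyp2f2 UMIs per 10000 UMIs of the cell (vertical axis) in the cells of each gate, NAPH left of Control, with secretory cells split by Upk3a; each point is a cell and the black bar is the median. In Upk3a-negative secretory cells the median was 31.1 in NAPH and 56.0 in Control, and in ciliated cells it was 17.3 in NAPH and 11.1 in Control.

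Cyp4b1 encodes a lung P450 that activates furan toxicants and hydroxylates fatty acids. It stood at 126 CPM (116 to 137) in NAPH and 452 CPM (443 to 462) in Control for secretory cells, and at 382 CPM (354 to 411) in NAPH and 260.5 CPM (231 to 292) in Control for ciliated cells. Ciliated cells thus ranked first in NAPH, and secretory cells first in Control. AT2 cells held 4.38 CPM (3.59 to 5.29) in NAPH and 10.9 CPM (9.24 to 12.7) in Control, and myeloid cells 2.81 CPM (1.45 to 4.91) in NAPH and 7.19 CPM (4.73 to 10.5) in Control, and the intervals of these gates overlapped within each library.

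Cyp2b10, whose product is the phenobarbital-inducible P450 of mouse liver, was highest in ciliated cells, at 264 CPM (241 to 289) in NAPH and 240.4 CPM (212 to 271) in Control. Secretory cells held 19.9 CPM (15.9 to 24.6) in NAPH and 44.5 CPM (41.7 to 47.5) in Control. In AT2 cells the level was 33.0 CPM (30.8 to 35.4) in NAPH and 31.7 CPM (28.8 to 34.7) in Control, and in myeloid cells 2.58 CPM (1.29 to 4.61) in NAPH and 1.86 CPM (0.749 to 3.84) in Control. In CPM, AT2 cells therefore ranked above secretory cells in NAPH and below them in Control. Relative to the median ratio of all genes, the secretory level was 0.888 (0.701 to 1.11) times the AT2 level in NAPH. In Control it was 2.91 (2.59 to 3.26) times on that scale, so the NAPH rank depends on the scale.

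Cyp2a5, the mouse coumarin hydroxylase, was also highest in ciliated cells, at 131 CPM (115 to 148) in NAPH and 193 CPM (168 to 221) in Control. Secretory cells held 15.7 CPM (12.2 to 19.9) in NAPH and 34.4 CPM (31.9 to 37.0) in Control, AT2 cells 0.365 CPM (0.167 to 0.693) in NAPH and 0.778 CPM (0.388 to 1.39) in Control, and myeloid cells 0.468 CPM (0.0567 to 1.69) in NAPH and 0.798 CPM (0.165 to 2.33) in Control. Its UMIs sat in a minority of cells: a UMI was found in 8.60% in NAPH and 23.8% in Control of secretory cells and in 40.9% in NAPH and 33.2% in Control of ciliated cells. In Control secretory cells 324 of its 711 UMIs came from the 96 cells with Scgb1a1 between 3000 and 5000 per 10000 UMIs.

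Cyp2s1, an extrahepatic P450 of epithelia that dioxin induces in mice, was highest in ciliated cells by a wide margin. Its level there was 1079 CPM (1033 to 1127) in NAPH and 993 CPM (935 to 1053) in Control, against 13.1 CPM (9.90 to 17.0) in NAPH and 8.71 CPM (7.48 to 10.1) in Control for secretory cells. As plain CPM the ciliated level was 82.3 (63.2 to 109) times the secretory level in NAPH and 114 (97.3 to 134) times in Control. Relative to the median ratio of all genes it was 32.9 (25.2 to 43.7) times in NAPH and 33.6 (28.7 to 39.6) times in Control. A UMI was held by 99.0% in NAPH and 99.5% in Control of ciliated cells. Myeloid cells ranked next, with 17.8 CPM (14.0 to 22.3) in NAPH and 25.3 CPM (20.5 to 30.9) in Control, overlapping the secretory interval in NAPH, and AT2 cells held 2.68 CPM (2.07 to 3.40) in NAPH and 2.26 CPM (1.55 to 3.19) in Control. Myeloid cells were also taken by 4 marker genes, in sets that may share cells. Those with a UMI of Xcr1, a chemokine receptor of dendritic cells, held 14.7 CPM (9.23 to 22.3) in NAPH and 33.0 CPM (25.2 to 42.5) in Control, and those with at least 2 UMIs of Cd209a, a dendritic cell lectin, 22.7 CPM (15.4 to 32.2) in NAPH and 25.6 CPM (15.4 to 40.0) in Control. Those with at least 2 UMIs of Ear2, a ribonuclease, held 20.1 CPM (12.3 to 31.0) in NAPH and 16.6 CPM (9.05 to 27.8) in Control. Cells with a UMI of Marco, a macrophage scavenger receptor, held 0 UMIs of Cyp2s1 in 2 NAPH cells and 1 in 36 Control cells. The intervals of the Xcr1, Cd209a and Ear2 sets overlapped one another in both libraries.

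Cyp2e1 and Cyp1b1 were scarce. Cyp2e1, the ethanol-inducible P450 of the liver, stayed between 1.16 and 3.74 CPM in every gate of both libraries, with overlapping intervals between all neighbouring gates. Its secretory level, 1.17 CPM (0.380 to 2.73) in NAPH and 1.16 CPM (0.744 to 1.73) in Control, was no higher than the myeloid level, 2.81 CPM (1.45 to 4.91) in NAPH and 1.86 CPM (0.749 to 3.84) in Control. Cyp1b1, an AHR-induced enzyme that oxidises polycyclic hydrocarbons and oestradiol, had its highest level in secretory cells, 10.1 CPM (7.28 to 13.6) in NAPH and 7.50 CPM (6.36 to 8.77) in Control. AT2 cells held 0.203 CPM (0.0658 to 0.473) in NAPH and 0.636 CPM (0.291 to 1.21) in Control. Ciliated cells had 0 UMIs in NAPH, which allows up to 1.97 CPM, and 1.82 CPM (0.221 to 6.58) in Control, an interval that overlaps the secretory one. Cyp1b1 had 0 UMIs in myeloid cells of either library, which allows up to 0.864 CPM in NAPH and 0.982 CPM in Control.

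Por kept 1 order in both libraries, secretory, ciliated, AT2 and myeloid, with no overlap between neighbouring intervals. Its level in secretory cells was 367 CPM (349.5 to 386) in NAPH and 465 CPM (456 to 474) in Control, and in ciliated cells 264 CPM (241 to 289) in NAPH and 222 CPM (195 to 252) in Control. AT2 cells held 91.2 CPM (87.5 to 95.1) in NAPH and 98.9 CPM (93.8 to 104) in Control, and myeloid cells 23.9 CPM (19.5 to 29.0) in NAPH and 24.5 CPM (19.7 to 30) in Control. A UMI was found in 97.8% in NAPH and 99.3% in Control of secretory cells and in 55.5% in NAPH and 53.9% in Control of AT2 cells.

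**Figure D2:**
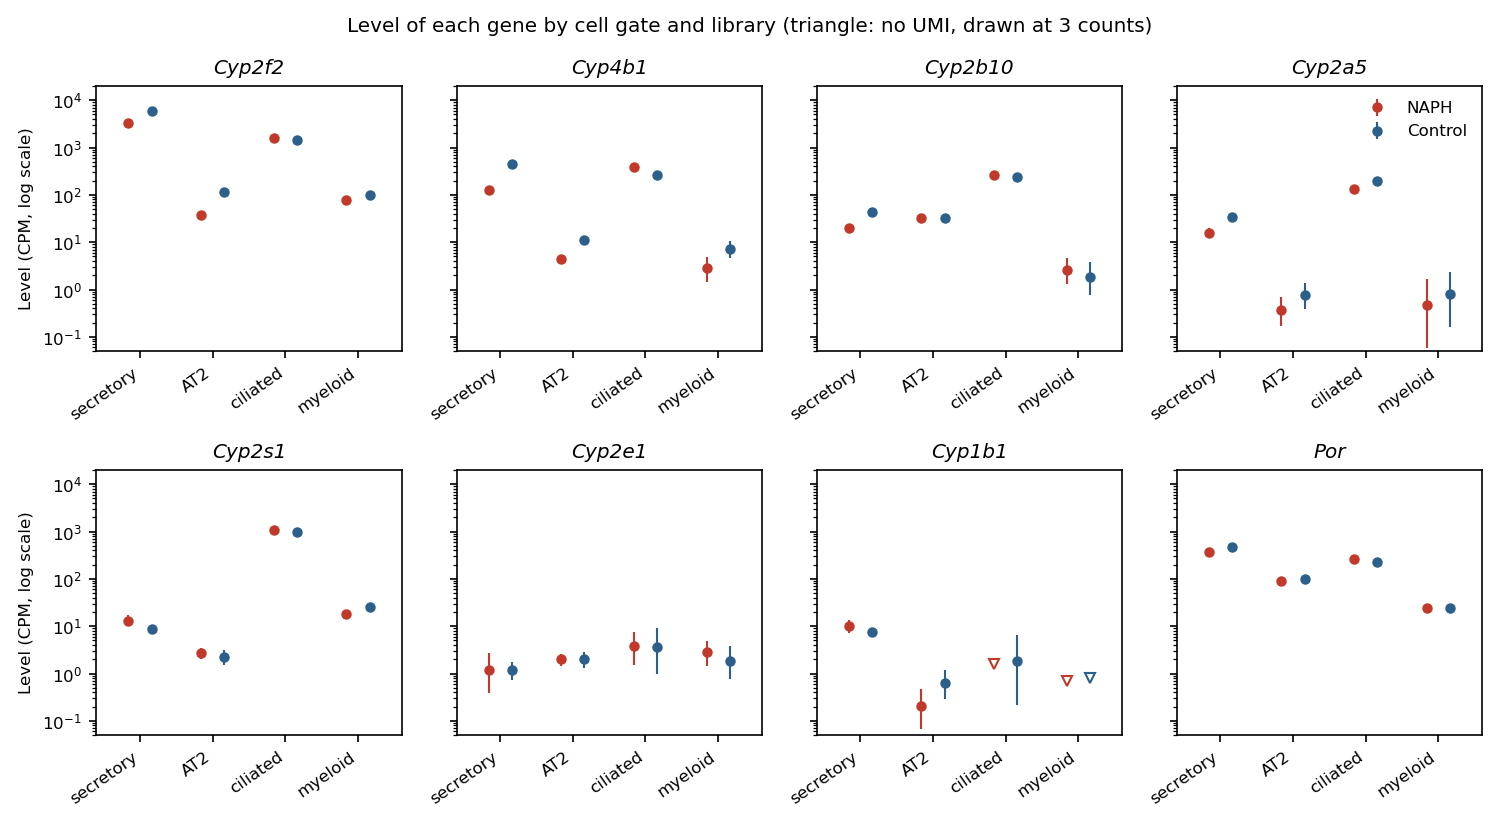
Level of each of the 8 genes in CPM (log axis) by cell gate, NAPH left of Control; each point is the sum over the cells of a gate in 1 library, bars are exact 95% Poisson intervals, and triangles mark 0 UMIs drawn at the level of 3 counts. Cyp2f2 and Por are highest in secretory cells of both libraries, while Cyp2b10, Cyp2a5 and Cyp2s1 are highest in ciliated cells.

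Each gate was then compared between the libraries. CPM depend on the most abundant transcript, and Scgb1a1 made up 35.8% in NAPH and 59.8% in Control of secretory UMIs. Over all genes compared, the log2 ratio of NAPH to Control had a median of 0.60 in secretory, 0.09 in AT2, 0.08 in ciliated and -0.05 in myeloid cells. Ratios of NAPH over Control are therefore given relative to that median unless called plain. A gene was compared with at least 30 UMIs over both libraries, and a relative ratio of 2 in either direction was the size counted.

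In secretory cells Cyp4b1, Cyp2b10, Cyp2a5 and Cyp2f2, 4 of the 7 genes with enough UMIs, were at least 2 times lower in NAPH and 0 were higher, while 4.49% of 10166 genes were lower and 4.58% higher. Cyp4b1 had the lowest ratio, 0.184 (0.169 to 0.201), on 539 UMIs in NAPH and 9353 UMIs in Control. Cyp2b10 stood at 0.295 (0.234 to 0.369), on 85 UMIs in NAPH and 921 UMIs in Control, and Cyp2a5 at 0.302 (0.231 to 0.388), on 67 UMIs in NAPH and 711 UMIs in Control. Cyp2f2 stood at 0.373 (0.367 to 0.380), on 14012 UMIs in NAPH and 120174 UMIs in Control. Por lay just short of the counted size, at 0.523 (0.495 to 0.551). The intervals of Cyp2s1, 0.996 (0.724 to 1.35), and Cyp1b1, 0.888 (0.618 to 1.25), included 1, and Cyp2e1 was not compared, with 5 UMIs in NAPH and 24 UMIs in Control. The median log2 ratio of the 7 genes was -1.42.

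The scale decided 1 of these counts. As plain CPM ratios Cyp4b1 stood at 0.279 (0.255 to 0.304), Cyp2b10 at 0.447 (0.353 to 0.558) and Cyp2a5 at 0.456 (0.350 to 0.586), but Cyp2f2 at 0.564 (0.554 to 0.574) was no longer 2 times lower. Por stood at 0.791 (0.749 to 0.834), while Cyp2s1, at 1.51 (1.09 to 2.04), and Cyp1b1, at 1.34 (0.934 to 1.89), were above 1. With the UMIs of Scgb1a1, Scgb3a2 and Sftpc left out of the total, the CPM ratio of Cyp2f2 was 0.365. Set against Scgb1a1 itself, Cyp2f2 was close between the libraries, at 9.15 UMIs (9.0 to 9.30) in NAPH and 9.73 UMIs (9.67 to 9.78) in Control per 1000 Scgb1a1 UMIs. Cyp4b1 was not, at 0.352 UMIs (0.323 to 0.383) in NAPH and 0.757 UMIs (0.742 to 0.772) in Control per 1000 Scgb1a1 UMIs.

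Secretory cells of the libraries differed in other ways too. Markers of goblet cells, the mucus-producing secretory cells, summed to 31051 CPM in NAPH and 10469 CPM in Control, with all 5 detected in both. Most of each sum came from 1 marker, at 28957 CPM in NAPH and 9209 CPM in Control. AT2 markers summed to 20654 CPM in NAPH and 8396 CPM in Control, with all 9 detected in both. The highest of them stood at 11696 CPM in NAPH and 4733 CPM in Control. The 6 lymphoid markers summed to 0 CPM in NAPH and 0.193 CPM in Control. The median secretory cell held 22606 UMIs in NAPH and 29298 UMIs in Control, and its median Scgb1a1 level per 10000 UMIs was 3559 in NAPH and 6116 in Control. The part of the goblet and AT2 markers and of depth in the P450 ratios was not tested. In a range of Scgb1a1 set after the data were seen, 3000 to 6000 per 10000 UMIs, there were 104 NAPH and 314 Control secretory cells. Cyp2f2 stood there at 3082 CPM in NAPH and 6244 CPM in Control, a ratio of 0.444, and Cyp4b1 at 132 CPM in NAPH and 477 CPM in Control, a ratio of 0.25. Cyp2b10 stood at 21.3 CPM in NAPH and 45.6 CPM in Control, a ratio of 0.421, and Cyp2a5 at 6.87 CPM in NAPH and 76.1 CPM in Control, a ratio of 0.0812. All 4 genes stayed at least 2 times lower in this range, and the Cyp2a5 ratio was further from 1 than over all secretory cells. Another range, 1000 to 3000, held 74 NAPH and 12 Control cells. Cyp2f2 stood there at 3703 CPM (3602 to 3806) in NAPH and 4103 CPM (3775 to 4452) in Control, with overlapping intervals. Cyp2a5 had 48 UMIs (34.9 CPM) in NAPH and 2 UMIs (14.2 CPM) in Control. Cyp4b1 stood at 108 CPM in NAPH and 341 CPM in Control, and Cyp2b10 at 15.3 CPM in NAPH and 85.2 CPM in Control. The range of 5000 or more held 32 NAPH and 641 Control cells. Cyp2b10 stood there at 38.0 CPM (25.1 to 55.3) in NAPH and 44.4 CPM (41.4 to 47.6) in Control, with overlapping intervals. Cyp2f2 stood at 3295 CPM in NAPH and 5883 CPM in Control, and Cyp4b1 at 158 CPM in NAPH and 464 CPM in Control. Cyp2a5 had 1 UMI in NAPH and 385 UMIs in Control.

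**Figure D3:**
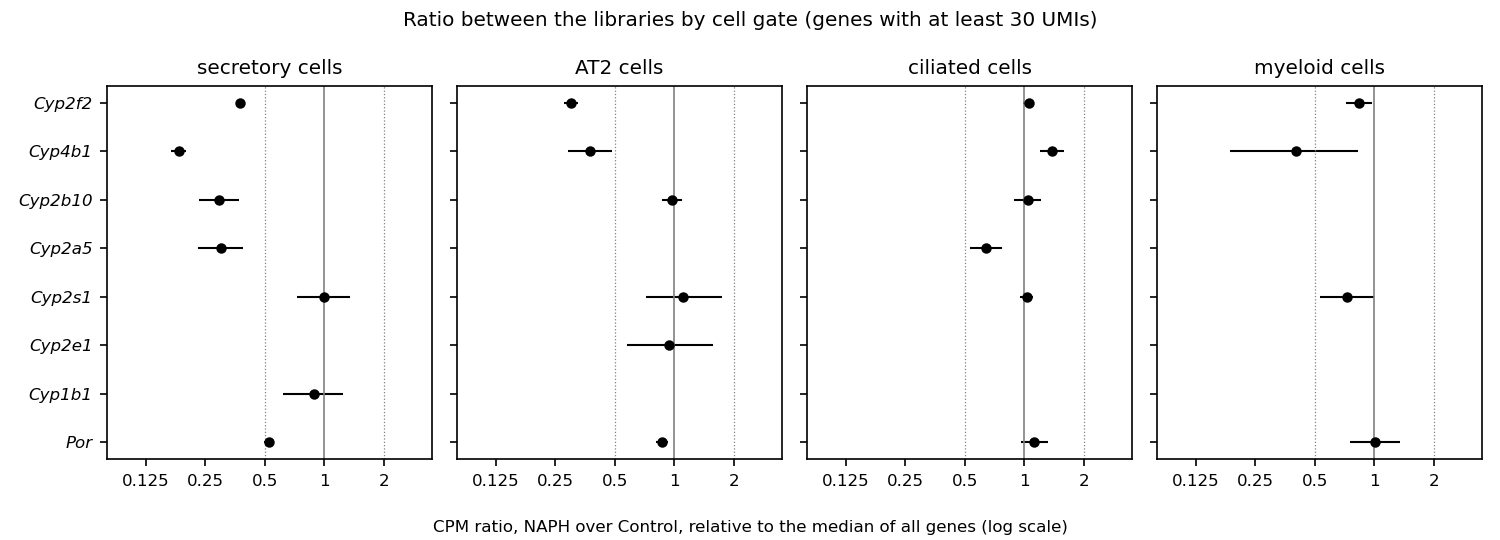
CPM ratio of each gene, NAPH over Control, relative to the median of all genes in the gate (log axis), for genes with at least 30 UMIs; bars are exact 95% intervals and dotted lines mark a factor of 2 either way. Beyond the lower line lie 4 genes in secretory cells and Cyp2f2 and Cyp4b1 in AT2 cells, and in ciliated cells all 6 genes compared lie between the lines.

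In ciliated cells no P450 gene compared was lower or higher in NAPH by this factor. Of the 6 genes with enough UMIs 0 passed the factor of 2, where 1.74% of 8672 genes were lower and 6.15% higher. Cyp2f2 stood at 1.05 (0.989 to 1.12), Cyp2b10 at 1.04 (0.891 to 1.21), Cyp2s1 at 1.03 (0.952 to 1.10) and Por at 1.12 (0.960 to 1.31), with intervals that include 1. Cyp4b1 was higher in NAPH, at 1.38 (1.20 to 1.59), and Cyp2a5 lower, at 0.639 (0.529 to 0.771). On the log2 scale the Cyp4b1 ratio was -2.44 in secretory and 0.47 in ciliated cells, and the Cyp2f2 ratio -1.42 in secretory and 0.07 in ciliated cells. These contrasts between gates rest on the same 2 libraries and were not tested. In the ciliated cells at or below their library's median of Scgb1a1, a split made after the data were seen, Cyp4b1 stood at 315 CPM in NAPH and 304 CPM in Control and Cyp2f2 at 1375 CPM in NAPH and 1540.4 CPM in Control. In the other ciliated cells Cyp4b1 stood at 448 CPM in NAPH and 219.7 CPM in Control and Cyp2f2 at 1835 CPM in NAPH and 1346 CPM in Control, higher in NAPH for both genes.

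Cyp2f2 was high relative to Scgb1a1 in ciliated cells. Ciliated cells held 181 UMIs (174 to 188) in NAPH and 59.5 UMIs (56.5 to 62.6) in Control of Cyp2f2 per 1000 Scgb1a1 UMIs. At the secretory ratio, their Scgb1a1 would come with 5.05% in NAPH and 16.4% in Control of their Cyp2f2 UMIs. For Cyp4b1 this share was 0.818% in NAPH and 7.04% in Control, and for Cyp2b10 0.186% in NAPH and 0.751% in Control. The 9 secretory markers summed to 11460.2 CPM in NAPH and 9249.5 CPM in Control in ciliated cells, and their part in the ciliated levels was not tested.

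In AT2 cells the genes with low ratios were Cyp2f2 and Cyp4b1. Cyp2f2 stood at 0.30 (0.277 to 0.326) and Cyp4b1 at 0.377 (0.292 to 0.486), so 2 of the 6 genes with enough UMIs were at least 2 times lower in NAPH, where 2.20% of 11543 genes were lower and 3.28% higher. Cyp2b10, at 0.977 (0.870 to 1.10), Cyp2s1, at 1.11 (0.717 to 1.75), and Cyp2e1, at 0.941 (0.580 to 1.56), had intervals that include 1. Por stood at 0.865 (0.809 to 0.925).

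The Cyp2f2 and Cyp4b1 levels of AT2 cells were set beside those of myeloid cells, a gate that is not free of secretory RNA. Per 10000 UMIs, the highest value in a myeloid cell was 46.9 in NAPH and 5.41 in Control for Cyp2f2. For the secretoglobin gene Scgb3a2 it was 333 in NAPH and 10.9 in Control. The AT2 level of Cyp2f2 was 0.473 (0.417 to 0.537) times the myeloid level in NAPH and 1.20 (1.07 to 1.35) times in Control, and that of Cyp4b1 1.56 (0.857 to 3.11) times in NAPH and 1.52 (1.0 to 2.37) times in Control. Cyp2f2 had a UMI in 23.3% in NAPH and 58.0% in Control of AT2 cells, and in 18.2% in NAPH and 53.9% in Control of myeloid cells. With each cell thinned to 3500 UMIs these shares were 9.48% in NAPH and 33.3% in Control of AT2 cells, and 7.92% in NAPH and 27.7% in Control of myeloid cells. The median AT2 cell held 9540.0 UMIs in NAPH and 7677 UMIs in Control, and the median myeloid cell 7914 UMIs in NAPH and 7930.0 UMIs in Control. Scgb1a1 took 0.304% in NAPH and 1.31% in Control of AT2 UMIs and 0.275% in NAPH and 1.38% in Control of myeloid UMIs. Per 1000 Scgb1a1 UMIs, AT2 cells held 12.4 UMIs (11.6 to 13.2) in NAPH and 8.92 UMIs (8.5 to 9.37) in Control of Cyp2f2, and myeloid cells 28.8 UMIs (25.8 to 32.1) in NAPH and 7.09 UMIs (6.38 to 7.86) in Control. In NAPH both values lay above the secretory one and in Control both lay below it, with no interval overlapping that of secretory cells. At the secretory ratio Scgb1a1 would come with 74.1% in NAPH and 109% in Control of the AT2 Cyp2f2 UMIs and with 24.4% in NAPH and 91.2% in Control of the AT2 Cyp4b1 UMIs. Cyp4b1 had a UMI, thinned, in 1.64% in NAPH and 3.68% in Control of AT2 cells and in 0.792% in NAPH and 2.68% in Control of myeloid cells, and unthinned in 3.48% in NAPH and 7.53% in Control of AT2 cells and 2.38% in NAPH and 5.59% in Control of myeloid cells. The part of free secretory RNA in the AT2 ratios of Cyp2f2 and Cyp4b1 was not tested.

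Cyp2b10 and Por in AT2 cells stood above the myeloid level. Cyp2b10 had 10.9 UMIs (10.1 to 11.7) in NAPH and 2.41 UMIs (2.20 to 2.65) in Control per 1000 Scgb1a1 UMIs of AT2 cells, against 0.0555 UMIs (0.0443 to 0.0686) in NAPH and 0.0745 UMIs (0.0698 to 0.0795) in Control of secretory cells. Its AT2 level was 12.8 (7.12 to 25.8) times the myeloid level in NAPH and 17.0 (8.18 to 42.5) times in Control. Thinned, it had a UMI in 8.80% in NAPH and 8.37% in Control of AT2 cells, and in 0.990% in NAPH and 0.895% in Control of myeloid cells; unthinned, in 18.5% in NAPH and 16.7% in Control of AT2 cells and in 2.18% in NAPH and 1.57% in Control of myeloid cells. For Por the AT2 level was 3.82 (3.13 to 4.71) times the myeloid level in NAPH and 4.04 (3.27 to 5.04) times in Control.

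**Figure D4:**
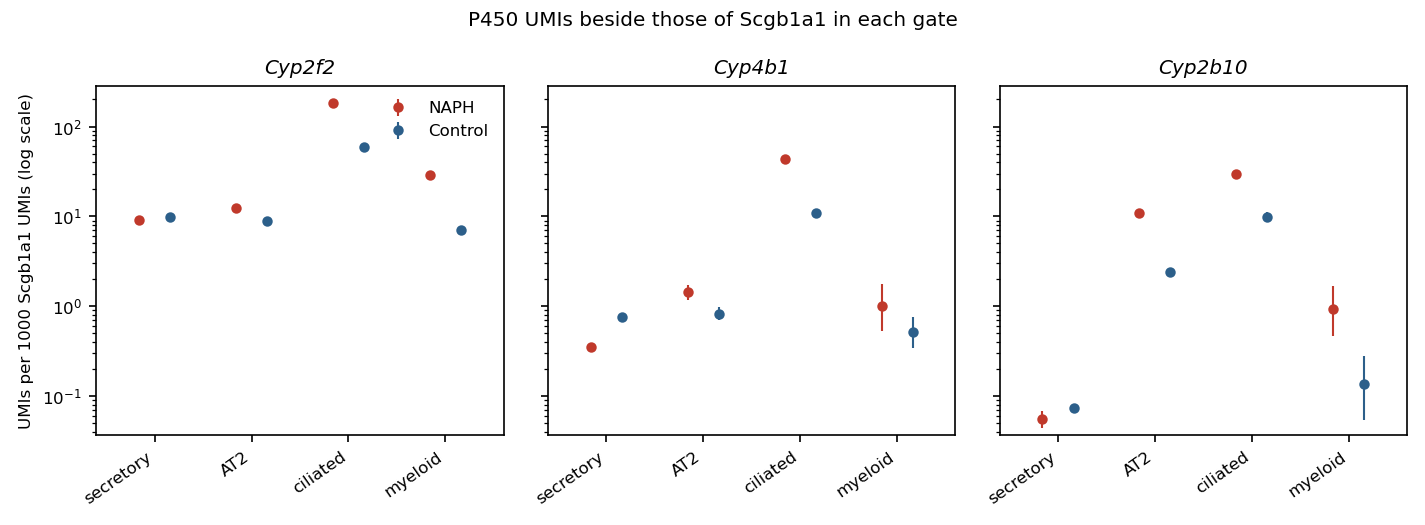
UMIs of Cyp2f2, Cyp4b1 and Cyp2b10 per 1000 Scgb1a1 UMIs (log axis) by cell gate, NAPH left of Control, with exact 95% intervals as bars. Cyp2f2 in AT2 cells stands at 12.4 in NAPH and 8.92 in Control, in myeloid cells at 28.8 in NAPH and 7.09 in Control, and in secretory cells at 9.15 in NAPH and 9.73 in Control, while Cyp2b10 in AT2 cells, at 10.9 in NAPH and 2.41 in Control, lies far above its secretory values.

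In myeloid cells Cyp4b1, 1 of the 4 genes with enough UMIs, was at least 2 times lower in NAPH, at 0.404 (0.186 to 0.824) on 12 UMIs in NAPH and 27 UMIs in Control, where 2.55% of 9327 genes were lower and 3.38% higher. Cyp2f2 stood at 0.839 (0.722 to 0.975), and at 0.499 with the cells thinned. Its highest myeloid cell held 46.9 in NAPH and 5.41 in Control per 10000 UMIs. Cyp2s1 stood at 0.727 (0.530 to 0.993) and Por at 1.01 (0.752 to 1.35).

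Upk3a, a uroplakin gene, marks variant club cells that are known to survive naphthalene and to hold little CYP2F2. Of the secretory cells, 72 of 186 in NAPH and 16 of 749 in Control had at least 2 Upk3a UMIs. This cut is in raw UMIs, and the median NAPH cell held 26900.5 UMIs in Upk3a-positive and 19719 in Upk3a-negative cells. Among cells of no gate, 26 of 167 in NAPH and 0 of 25 in Control had an Upk3a UMI, and they are outside this split. All Upk3a-positive secretory cells held Cyp2f2. In NAPH it stood at 3221 CPM (3140.3 to 3304) in Upk3a-positive and 3325 CPM (3252 to 3399) in Upk3a-negative cells, a ratio of 0.883 (0.854 to 0.914) relative to all genes and 0.969 (0.937 to 1.0) as a plain ratio. In Control it stood at 4378 CPM (4185 to 4577) in Upk3a-positive and 5843 CPM (5810.2 to 5877) in Upk3a-negative cells, a relative ratio of 0.655 (0.626 to 0.685). Per 10000 UMIs of a NAPH cell its lowest, median and highest values were 3.81, 26.6 and 122 in Upk3a-positive and 6.39, 31.1 and 103 in Upk3a-negative cells, which overlap over most of their range.

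Of the 7 genes compared within the NAPH library, Cyp2b10 alone passed the factor of 2 between these cells, where 2.22% of 6499 genes were lower and 1.38% higher in Upk3a-positive cells. It stood at 10.7 CPM (6.54 to 16.5) in Upk3a-positive and 27.0 CPM (20.9 to 34.5) in Upk3a-negative cells, a ratio of 0.361 (0.207 to 0.603), on 20 UMIs in Upk3a-positive and 65 in Upk3a-negative cells. With a minimum of 1 Upk3a UMI the ratio was 0.592, and in the Scgb1a1 range of 3000 to 6000 it was 0.556, neither past the factor. Cyp4b1 stood at 129 CPM in Upk3a-positive and 124 CPM in Upk3a-negative cells, a ratio of 0.948 (0.797 to 1.13), and Por at 416 CPM in Upk3a-positive and 329.9 CPM in Upk3a-negative cells, a ratio of 1.15 (1.04 to 1.27). Cyp2a5 stood at 19.3 CPM in Upk3a-positive and 12.9 CPM in Upk3a-negative cells, Cyp2s1 at 10.2 CPM in Upk3a-positive and 15.4 CPM in Upk3a-negative cells and Cyp1b1 at 9.09 CPM in Upk3a-positive and 10.8 CPM in Upk3a-negative cells, with ratio intervals that include 1.

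In Control, with 16 Upk3a-positive cells, 1 of 7 genes was lower and 2 were higher in Upk3a-positive cells, where 9.69% of 9577 genes were lower and 13.4% higher. Cyp2a5 had 0 UMIs in Upk3a-positive and 711 UMIs in Upk3a-negative cells. With 3 counts per group as the floor its ratio was 0.169, and its interval reached up to 0.208. Cyp1b1 stood at 27.1 CPM in Upk3a-positive and 7.07 CPM in Upk3a-negative cells, a ratio of 3.36 (1.69 to 6.05) on 12 UMIs in Upk3a-positive cells. Cyp2s1, at 20.4 CPM in Upk3a-positive and 8.45 CPM in Upk3a-negative cells, had an interval that includes 1 (0.946 to 4.09).

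The lower levels of Cyp2f2 and Cyp4b1 in NAPH secretory cells were present on both sides of the Upk3a split. In Upk3a-positive cells Cyp2f2 stood at 0.470 (0.447 to 0.495), Cyp4b1 at 0.246 (0.20 to 0.304) and Cyp2b10 at 0.144 (0.0741 to 0.279), 3 of 5 genes lower by the factor of 2, where 5.09% of 4377 genes were lower and 9.87% higher. In Upk3a-negative cells Cyp2f2 stood at 0.390 (0.381 to 0.399), Cyp4b1 at 0.187 (0.166 to 0.209), Cyp2b10 at 0.416 (0.319 to 0.536), Cyp2a5 at 0.251 (0.169 to 0.360) and Por at 0.487 (0.453 to 0.524), 5 of 7 genes, where 5.60% of 9887 genes were lower and 4.48% higher. Cyp2a5 was not lower in NAPH in Upk3a-positive cells, with 36 UMIs in 9 of 72 NAPH cells and 0 UMIs in 16 Control cells. With 3 counts as the floor its ratio was 1.82, with a lower limit of 1.40 and short of the factor of 2.

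The other genes of the pathway were counted in secretory cells by the same rule, to be read against the 4.49% lower and 4.58% higher of all genes. Among 8 electron donors besides Por, 1 was lower and 0 higher, with a median log2 ratio of -0.37. It was Cyb5a, cytochrome b5, at 530.1 CPM in NAPH and 797 CPM in Control, a ratio of 0.440 (0.421 to 0.460). Pgrmc1, a haem-binding partner of P450 enzymes, stood at 0.516, and Fdx1, the mitochondrial ferredoxin, at 1.12.

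Of 12 epoxide and diol enzymes 8 were compared, with 2 lower, 1 higher and a median log2 ratio of -0.23. Ephx1, the microsomal epoxide hydrolase, stood at 34.6 CPM in NAPH and 58.5 CPM in Control, a ratio of 0.391 (0.328 to 0.465). Akr1c13, an aldo-keto reductase, stood at 2.57 CPM in NAPH and 5.76 CPM in Control, a ratio of 0.296 (0.144 to 0.549). Akr1b8, another aldo-keto reductase, was the higher one, at 34.6 CPM in NAPH and 6.38 CPM in Control, a ratio of 3.59 (2.82 to 4.57). Cbr2, the lung carbonyl reductase, stood at 9655 CPM in NAPH and 9433 CPM in Control, a ratio of 0.677 (0.670 to 0.684).

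Of 18 glutathione transferases 5 were lower and 0 higher, with a median log2 ratio of -0.36. Gsta2 stood at 8.19 CPM in NAPH and 37.9 CPM in Control, a ratio of 0.143 (0.0988 to 0.20), and Gsta3 at 180.5 CPM in NAPH and 329 CPM in Control, a ratio of 0.362 (0.336 to 0.390). Gsta1, Gstm1 and Gstm2 were the other lower genes. Gsto1, an omega class transferase, stood at 1747 CPM in NAPH and 618 CPM in Control, a ratio of 1.87 (1.82 to 1.92), below the factor counted.

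Glutathione synthesis and export gave 1 lower and 2 higher of 8 genes compared, with a median log2 ratio of 0.02. Gclc, the catalytic subunit of the rate-limiting enzyme of glutathione synthesis, stood at 155 CPM in NAPH and 41.7 CPM in Control, a ratio of 2.46 (2.22 to 2.73). Ggct, a glutamylcyclotransferase, stood at 16.9 CPM in NAPH and 5.32 CPM in Control, a ratio of 2.09 (1.53 to 2.84), and the exporter gene Abcc3 at 19.2 CPM in NAPH and 32.3 CPM in Control, a ratio of 0.393 (0.309 to 0.495). Gclc was also higher in AT2 cells, at 651 CPM in NAPH and 195 CPM in Control, a ratio of 3.13 (3.01 to 3.26), and in myeloid cells, at 37.5 CPM in NAPH and 8.78 CPM in Control, a ratio of 4.40 (3.01 to 6.62), whereas in ciliated cells its ratio was 1.87.

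Of 11 conjugation and oxidation genes compared, 3 were lower and 0 higher, with a median log2 ratio of -0.69. Among them were the aldehyde oxidase gene Aox3, at 44.0 CPM in NAPH and 91.1 CPM in Control, a ratio of 0.319 (0.273 to 0.371), and the sulfotransferase gene Sult1a1, at 15 CPM in NAPH and 25 CPM in Control, a ratio of 0.397 (0.301 to 0.515). In AT2 cells, where 2.20% of all genes were lower and 3.28% higher, 6 of 10 of this list were lower, with a median log2 ratio of -1.09, Sult1a1 and Aox3 among them.

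None of 12 haem genes and none of 11 regulators passed the factor in secretory cells, with median log2 ratios of -0.03 for haem genes and -0.20 for regulators. Alas1, the rate-limiting enzyme of haem synthesis, stood at 204 CPM in NAPH and 232 CPM in Control, a ratio of 0.582 (0.540 to 0.625). Nfe2l2, the gene of the oxidant-responsive factor NRF2, stood at 92.7 CPM in NAPH and 40.1 CPM in Control, a ratio of 1.53 (1.35 to 1.73), and Ahr, the aryl hydrocarbon receptor gene, at 39.6 CPM in NAPH and 18.6 CPM in Control, a ratio of 1.40 (1.17 to 1.69). Nkx2-1, a lung lineage factor, stood at 127 CPM in NAPH and 73.9 CPM in Control, a ratio of 1.14 (1.03 to 1.26).

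Of the 95 other Cyp genes 11 could be compared in secretory cells, with 4 lower, 0 higher and a median log2 ratio of -0.66. They were Cyp3a13, at 1.40 CPM in NAPH and 4.30 CPM in Control, a ratio of 0.216 (0.0771 to 0.488), Cyp4a12b, at 3.74 CPM in NAPH and 8.95 CPM in Control, a ratio of 0.277 (0.155 to 0.462), Cyp4f15, at 8.66 CPM in NAPH and 17.7 CPM in Control, a ratio of 0.324 (0.225 to 0.456), and Cyp39a1. No other Cyp gene reached 200 CPM in any gate of either library.

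**Figure D5:**
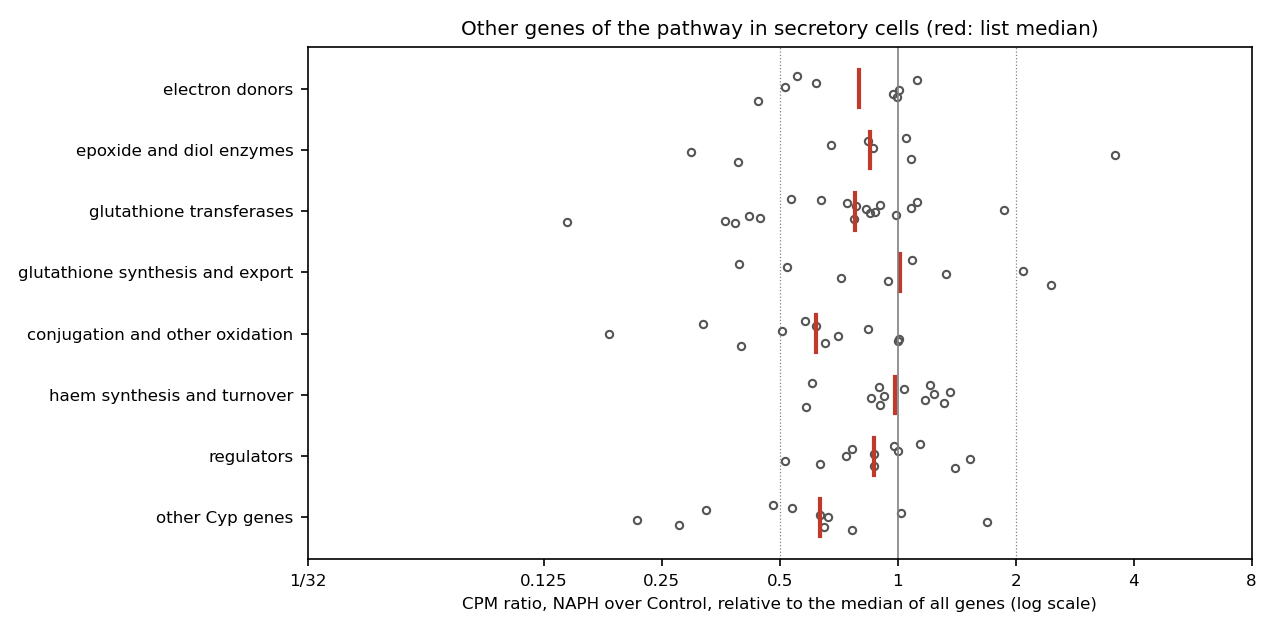
CPM ratio, NAPH over Control, of each gene of 8 lists in secretory cells, relative to the median of all genes (log axis); each point is a gene with at least 30 UMIs and the red mark is the list median. Gsta2 at 0.143 and Cyp3a13 at 0.216 lie lowest among the named genes, and Akr1b8 at 3.59 and Gclc at 2.46 highest.

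The genes closest to each P450 gene in pattern were ranked by Pearson's r of log2(CPM + 10) over 10 points, which are the AT2, ciliated, myeloid and both secretory groups in each library, among 11249 genes. The points share libraries and Scgb1a1 content, so r is a description. For Cyp2f2 they were Mgat3 (0.979), Cckar (0.972) and Gstm2 (0.970), for Cyp4b1 Aldh1a1 (0.974), Rassf9 (0.972) and Alas1 (0.970), and for Por Slc16a11 (0.980), Gsta4 (0.977) and Prdx6 (0.976). For Cyp2b10 they were Eps8l2 (0.978), Gdpd1 (0.971) and mt-Nd4 (0.970), for Cyp2a5 Pcsk6 (0.973), Gchfr (0.964) and Gstm7 (0.961), and for Cyp2s1 Aldh3b1 (0.995), Gclm (0.993) and Eef2k (0.993). For the scarce genes they were Zfp746 (0.982), Rbm19 (0.976) and Kdm2a (0.967) with Cyp2e1, and Kdr (0.925), Wdr72 (0.915) and Entpd3 (0.913) with Cyp1b1. Cyp2e1 lay below the 10 CPM added at every point, with 1 UMI in NAPH and 0 in Control Upk3a-positive cells. Its r values thus rest on few UMIs and differences near counting error. Among the 8 genes themselves r was 0.94 between Cyp2f2 and Cyp4b1, 0.91 between Cyp2f2 and Por, and 0.85 between Cyp2a5 and Cyp2s1.

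Within a gate, cells with more Cyp2f2 tended to hold more Cyp4b1. Over ciliated cells Spearman's rho between them was 0.45 in NAPH and 0.25 in Control, and over secretory cells 0.23 in NAPH and 0.23 in Control. The cells of a library share its depth and free RNA, so these values are descriptions.

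Cells of no gate also held these genes. Cyp2f2 stood there at 2140.5 CPM (2070.1 to 2213) in NAPH and 1274 CPM (1109.5 to 1456) in Control, and a UMI was found in 114 of 167 NAPH and 19 of 25 Control cells. The secretory markers summed to 34179 CPM in NAPH and 3360.2 CPM in Control in them, with Retnla at 0 in Control, and Scgb3a2, a secretoglobin, had a UMI in 80.8% in NAPH and 68.0% in Control of them. Markers of basal cells, with Krt5 in 15% in NAPH and 40.0% in Control of cells, summed to 492 CPM in NAPH and 1487 CPM in Control, and AT1 markers to 1715 CPM in NAPH and 2039 CPM in Control. The makeup of this remainder thus differed between the libraries, and its part in the Cyp2f2 level was not tested. Of 6 genes with enough UMIs Cyp4b1 was at least 2 times lower in NAPH, at 0.308 (0.204 to 0.475), and Cyp2b10, at 2.46 (0.645 to 20.9), and Cyp2a5, at 3.28 (0.548 to 134), were past the factor in the other direction on 2 Control UMIs of Cyp2b10 and 1 of Cyp2a5, with intervals that include 1, where 6.80% of 6422 genes were lower and 12.4% higher.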

How the data were processed

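Single-cell RNA was measured in 1 NAPH and 1 Control library of Epcam-sorted mouse lung cells, and the authors deposited unnormalised UMI counts for each gene and barcode. Cell Ranger and the mm10 genome are named, per the submitters' processing notes; the sources used here do not give the version, the settings or the rule that called cells. Barcodes with under 500 genes, under 1000 UMIs or over 20% mitochondrial UMIs were removed (4 in NAPH, 0 in Control). Scrublet (scanpy 1.11.5) marked 0.109% of NAPH and 0.243% of Control barcodes at its automatic threshold, below the 0.5% accepted, so the highest-scoring barcodes were taken out, at the expected doublet rate of 0.8% for each 1000 barcodes (109 in NAPH, 87 in Control). Cells that passed more than 1 epithelial gate (15 in NAPH, 10 in Control) were held apart, and the myeloid gate came last.

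Counts were summed over the cells of a gate in each library and given as CPM. Ratios were divided by the median ratio of all genes with at least 30 UMIs over both sides. Intervals are exact (SciPy 1.17.1, NumPy 2.4.6, Python 3.11.15). Fold changes against 0 UMIs used a floor of 3 counts. TMM scaling (edgeR 4.0.16, R 4.3.3) was an alternative. Steps were tested on simulated data. Of 28692 gene IDs 28339 were found in GENCODE vM21.

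All 8 genes are given in every gate. From each pathway list up to 3 highest and 3 lowest ratios in secretory cells among genes with at least 50 UMIs could be named, from other Cyp genes those with at least 200 CPM in a gate, and for each of the 8 genes the 3 genes most like it. Other genes are named where a count turned on them, after their values were seen. Of 16 regulators 15 were analysed; Cebpd was not analysed here. Genes, gates, lists and alternatives were chosen with earlier results of these data known.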

Additional observations from a re-analysis of the deposited data

Results flagged for a closer look

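The ratio of Cyp4b1, NAPH over Control and relative to all genes, went opposite ways in different gates: it was 0.184 in secretory cells and 1.38 in ciliated cells. The same contrast appeared between AT2 cells, at 0.377, and ciliated cells, at 1.38. Neither difference was tested, since each group is 1 library. In ciliated cells at or below the median of Scgb1a1, a split made after the data were seen, the Cyp4b1 level was 315 CPM in NAPH and 304 CPM in Control, and in the other ciliated cells 448 CPM in NAPH and 219.7 CPM in Control.

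Cells outside every gate, which enter no main comparison, held Cyp2f2 at 2140.5 CPM in NAPH and 1274 CPM in Control, both above the myeloid level of 79.4 CPM in NAPH and 97.7 CPM in Control. The difference between the libraries was not tested.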

How the results depend on the processing

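No paired analysis was possible because each group is 1 library. There were 17 alternatives, and each gene value entered only those that applied to it, from 9 to 14 of them. A value that an alternative left without a ratio or with too few UMIs was not counted. Among the values counted, 0 of those past the factor of 2 in the main setting changed direction. Of 398 other gene values, 391 kept their side of that factor, 2 lost it and 5 gained it. Values short of the factor could change direction. The log2 ratio of Cyp4b1 in ciliated cells, 0.47, fell as low as -0.03, and that of Cyp1b1 in secretory cells, -0.17, rose as high as 0.71. The count of 4 genes lower in NAPH secretory cells ranged from 3 (plain ratios) to 5 (lower gates, or a factor of 1.5). The log2 ratio of Cyp2f2 in secretory cells, -1.42, was -1.46 with cells of several gates kept, -0.83 plain, -1.46 under TMM, -1.45 without the UMIs of Scgb1a1, Scgb3a2 and Sftpc, and -1.50 with gates at Scgb1a1 500 and Sftpc 250. It was -1.32 with gates at 2000 and 1000, -1.38 thinned, -1.38 with cells weighted equally, -1.45 with the myeloid level subtracted, and -1.17 in the same Scgb1a1 range. The count of 2 genes in AT2 cells was 1 with the myeloid level subtracted and 4 with a minimum of 10 UMIs. With that subtraction Cyp2f2 had no ratio in AT2 cells and left the count. Its NAPH level there, 37.5 CPM, lay below the myeloid level of 79.4 CPM. The log2 ratio of Cyp2f2 in Upk3a-positive over Upk3a-negative NAPH cells, -0.18, was -0.05 plain, -0.12 without the 3 genes, -0.09 with the lower and -0.27 with the higher gates, and -0.24 with the myeloid level subtracted. The plain log2 ratio of Cyp2f2 in secretory over AT2 Control cells, 5.63, was 5.39 with cells of several gates kept, 6.63 under TMM, 6.59 without the 3 genes, 5.56 thinned, 8.20 with the myeloid level subtracted and 5.74 in the same Scgb1a1 range. The cause of these shifts was not tested. Depth limits Cyp2e1 and Cyp1b1 in most gates and the 16 Upk3a-positive Control cells.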
